A study of Mus musculus with 23 samples.

Results

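Cxcl13 (ENSMUSG00000023078) was followed in every tumor of the series, as 1 of the 26869 genes in the expression matrix. The gene was chosen by its normalized counts in these same tumors, which were high in some responder host lines and low in another, so its differences between host lines and between responder and non-responder lines are given below as a description, with no test. Antibody effects, other genes and the relation of Cxcl13 to lymphocyte and stromal genes within sets of lines were tested. The gene lies on the forward strand of chromosome 5, from 95956951 to 95961068 in GRCm38, is annotated as protein coding, and its exons cover 1150 bases.

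MC38, a colon carcinoma cell line of C57BL/6J origin, was grown as a tumor in female F1 mice between C57BL/6J and a Collaborative Cross (CC) line, a recombinant inbred strain made from several founder strains. The responder (R) lines were C57BL/6J x CC001/UncJ (CC001F1), C57BL/6J x CC002/UncJ (CC002F1) and C57BL/6J x CC075/UncJ (CC075F1), and the non-responder (NR) lines were C57BL/6J x CC036/UncJ (CC036F1), C57BL/6J x CC079/TauUncJ (CC079F1) and C57BL/6J x CC080/TauUncJ (CC080F1). Mice aged 8 to 12 weeks received MC38 cells under the skin. Once tumors measured 75 to 110 mm3 the mice were given a single dose of 200 µg, either of aPD1, which blocks the checkpoint receptor PD-1, or of a control antibody of the same isotype, and tumors were taken 48 h later. There were 23 bulk tumors, 2 for each line and antibody and 1 for CC080F1 with aPD1. All hosts carry 1 C57BL/6J genome, the implanted cells are the same in all of them, and the cells were injected rather than arising in the host, which limits the model. The class of a line comes from the text of the study and not from the sample labels, and line is nested in class.

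CXCL13 is a chemokine that attracts B cells and follicular helper T cells, which carry its receptor CXCR5, into the follicles of lymph nodes and spleen. In those organs it is made by follicular dendritic cells and other stromal cells under the control of lymphotoxin, which signals through the lymphotoxin beta receptor and the non-canonical NF-kappaB pathway. Macrophages, including those of the peritoneal cavity, can also make it in mice, and in inflamed tissue it is known as a mark of lymphoid aggregates.

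The C57BL/6J sequence just before the start of Cxcl13 is shown because a copy of it is present in every host line, whatever the level of the transcript. The 250 bases from chr5:95956689-95956938, forward strand, are from RefSeq (GRCm38.p6), and the capitals mark matches to the letters of 2 motifs searched on both strands. The RefSeq start used for this window is not the same base as the annotated gene start given above.
Cxcl13 promoter: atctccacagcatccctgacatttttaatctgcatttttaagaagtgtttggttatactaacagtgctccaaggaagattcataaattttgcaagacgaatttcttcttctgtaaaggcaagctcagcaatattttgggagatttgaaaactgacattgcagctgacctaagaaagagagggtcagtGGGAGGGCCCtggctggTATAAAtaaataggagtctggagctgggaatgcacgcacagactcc
TATAAA was found 1 time, at position -46 from the RefSeq start, and 12.4% of 32851 mouse promoter windows of this length hold it. The NF-kappaB-like pattern, GGG followed after 5 free bases by CC, was found at position -63, where the same bases match on both strands, and 45.8% of windows hold it. A pair of GAAA with 2 free bases between them, as in interferon response elements, had 0 matches, against 2.98% of all windows. These are descriptions of the reference letters only. The CC allele of each host was not analysed here.

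Library totals ran from 14494014 to 71868253 estimated reads, and 6 of the 23 libraries, 2 of R and 4 of NR lines, were below 20000000. In bulk tumors, fewer cells of a type and less RNA per cell cannot be told apart. Glycam1, a gene of lymph node vessels, had 0 reads in 20 tumors and normalized counts of 383 in CC002F1 isotype replicate 1, 287 in CC079F1 aPD1 replicate 1 and 289 in CC080F1 aPD1 replicate 1. The same 3 tumors had summed normalized counts of the 14 B cell genes of 3951, 3080 and 8166, above all other tumors, and the antibody effects and relations of Cxcl13 are given with and without them. The sum of 5 skeletal muscle genes ranged from 12.7 to 19470 over the tumors. Shisal2b, used as a marker of MC38 cells, was present in all tumors, with line means from 580 to 905.

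Cxcl13 divided the responder lines. Normalized counts, which are the deposited estimated counts divided by a DESeq2 size factor per library, were 526 and 713 in the 2 isotype tumors of CC001F1 and 986 and 2507 in its 2 aPD1 tumors. CC075F1 had 1280 and 1810 with isotype and 1795 and 957.6 with aPD1. In CC002F1, the third responder line, the isotype tumors had 52.5 and 17.1 and the aPD1 tumors 25.6 and 38.5. Every CC002F1 tumor thus lay below every tumor of the other responder lines, with either antibody.

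In the non-responder lines Cxcl13 was low throughout. CC036F1 had 13.04 and 3.54 with isotype and 18.1 and 6.05 with aPD1. CC079F1 had 11.4 and 3.97 with isotype and 43.2 and 26.9 with aPD1. CC080F1 had 13.6 and 5.12 with isotype and 128 in its only aPD1 tumor, which was the highest value outside CC001F1 and CC075F1 and is 1 of the 3 tumors with Glycam1 reads. The estimated counts behind these values were small, from 2 to 137 reads in the 15 tumors of the 4 low lines and under 10 in 4 of them, against 332 to 3066 reads in the 8 tumors of CC001F1 and CC075F1. Those 8 tumors held 96.3% of the summed normalized count, and the lowest of them stood 4.10-fold above the highest of the others.

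**Figure D1:**
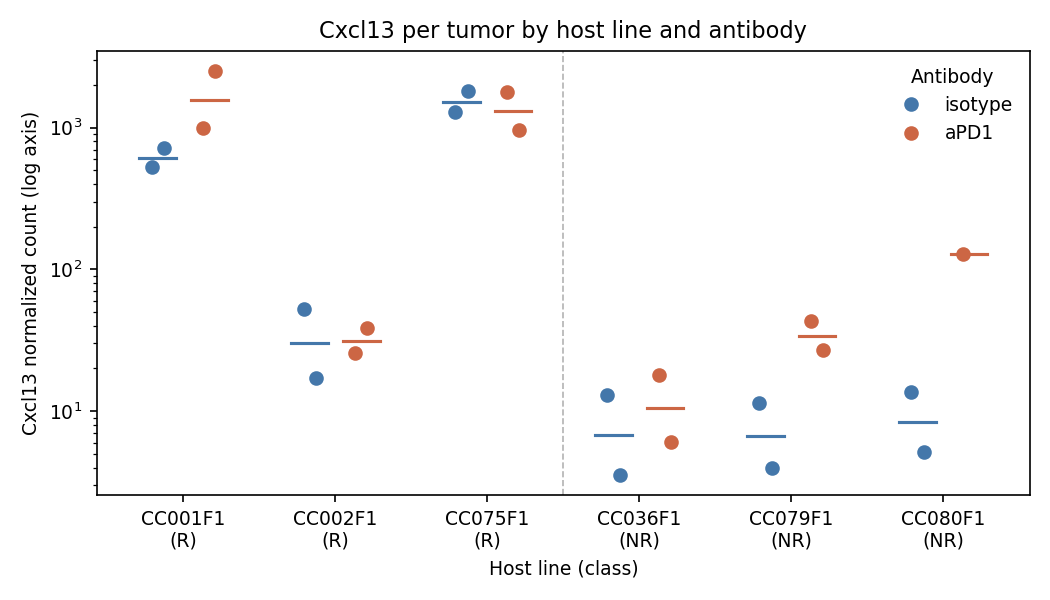
Cxcl13 normalized count (vertical log axis) in each of the 23 tumors by host line, with isotype in blue, aPD1 in orange and the geometric mean of each group as a bar. All 8 tumors of CC001F1 and CC075F1 lie at 526 or higher, and all tumors of the other 4 lines at 128 or lower, CC002F1 included.

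Ordered by the mean of log2(normalized count + 1), the lines ran from CC075F1 (10.47 ± 0.44, SD, n = 4) and CC001F1 (9.94 ± 0.97, n = 4) to CC002F1 (4.99 ± 0.68, n = 4), CC080F1 (4.50 ± 2.27, n = 3), CC079F1 (4.05 ± 1.39, n = 4) and CC036F1 (3.27 ± 0.94, n = 4). Of the 5 steps between neighbours in that order, only the step from CC001F1 to CC002F1, of 4.95, separated tumors without overlap. The other 4 steps, between 0.45 and 0.79, had overlapping ranges over both antibodies. With isotype alone, both CC002F1 tumors lay above all 6 NR tumors, the highest of which had 13.62, whereas with aPD1 the CC002F1 tumors lay within the range of the 5 NR tumors. In the model with antibody and line, the log2 difference was 4.86 ± 0.66 (SE) for CC001F1 minus CC002F1 and 5.48 ± 0.66 for CC075F1 minus CC002F1, which share the CC002F1 tumors, and -0.62 ± 0.65 for CC001F1 minus CC075F1. CC001F1 and CC075F1 thus set the R minus NR difference.

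Antibody was the contrast in which Cxcl13 could be tested. In CC001F1 both aPD1 tumors lay above both isotype tumors, with a difference in mean log2 of 1.36, whereas the antibody groups overlapped in CC002F1 (0.06) and in CC075F1 (-0.21). Over the R lines the DESeq2 effect of aPD1 was 0.39 ± 0.43 on the log2 scale (95% interval -0.44 to 1.23, adjusted p = 0.718), with all aPD1 tumors above all isotype tumors in 1 of 3 lines. DESeq2 called 5.26% of 15701 genes in this comparison, 4.85% higher and 0.408% lower with aPD1. Without CC001F1 aPD1 replicate 2, the tumor with the most Cxcl13, the effect was 0.07, and without CC002F1 isotype replicate 1, a Glycam1 tumor, it was 0.71.

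In the NR lines the Cxcl13 values were higher with aPD1, without passing the test. The aPD1 tumors lay above the isotype tumors in CC079F1 (difference in mean log2 2.16) and in CC080F1 (3.77, with 1 aPD1 tumor), and the groups overlapped in CC036F1 (0.54). The DESeq2 effect was 2.12 ± 0.62 (95% interval 0.91 to 3.33, unadjusted p = 0.000584, adjusted p = 0.289), in a comparison that called 0.0448% of 24552 genes, 0.0407% higher and 0.00407% lower. The aPD1 groups of CC079F1 and CC080F1 include 2 of the 3 tumors with Glycam1 reads, and without all 3 of those the effect was 1.11, for which DESeq2 gave no adjusted p. Without CC036F1 isotype replicate 1, a shallow library with 6 Cxcl13 reads, the effect was 2.58 with a DESeq2 adjusted p of 0.0217.

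The difference of the antibody effects, R minus NR, was -1.73 ± 0.75 for Cxcl13 (95% interval -3.21 to -0.26, DESeq2 unadjusted p = 0.0213, adjusted p = 0.605), and 0.0342% of 26342 genes were called, 0.019% with a larger and 0.0152% with a smaller effect in R lines. It was -1.05 without the line CC080F1 and -0.42 without the 3 Glycam1 tumors, with adjusted p of 0.645 and 1.0. A difference of the antibody effect by class did not pass the test for Cxcl13.

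Line means of the receptor did not follow those of the ligand. Cxcr5, the receptor of CXCL13 on B cells and follicular helper T cells, had line means of 9.47 in CC001F1 and 6.95 in CC075F1, below the 22.4 of CC002F1. It was highest in the 3 tumors with Glycam1 reads, with 80.2 in CC002F1 isotype replicate 1, 61.0 in CC079F1 aPD1 replicate 1 and 85.2 in CC080F1 aPD1 replicate 1, and at most 17.2 in the other 20. Each of these 3 tumors also had the most Cxcl13 of its line, with 52.5, 43.2 and 128. Per kilobase of exon, the mean level of Cxcl13 in CC075F1 was 1270.0 normalized counts and that of Cxcr5 was 2.09. Between R and NR lines Cxcr5 had a log2 difference of -0.34 ± 0.74 (DESeq2 adjusted p = 0.825), which turned to 0.08 without the Glycam1 tumors.

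The CCR7 ligands, which organize lymphoid tissue together with CXCL13, were near 0 reads where Cxcl13 was high. Ccl21a, which draws T cells and dendritic cells through CCR7, had line means of 2.88 in CC001F1 and 2.61 in CC075F1, and reached 232, 186 and 334 only in the 3 Glycam1 tumors. Ccl19, the other CCR7 ligand, had line means of 2.13 and 2.47 in the same lines. Cxcl12, the stromal ligand of CXCR4, was measured in every line, with means of 372 in CC001F1, 470 in CC002F1 and 352 in CC075F1. Of the 4 genes of this list, Ccl19, Ccl21a, Cxcl12 and Ccl20, none was called by DESeq2 or edgeR between R and NR lines and 0 had an unadjusted p under 0.05 in DESeq2, where DESeq2 called 14.4% of 17643 genes, 7.66% higher and 6.78% lower in R lines. For Ccl19, Ccl21a and Cxcl12 the median log2 difference was 0.22, against -0.0004 over all genes tested, and Ccl20 was too low to be tested. The defining follicular dendritic cell gene Cr2, a complement receptor that is also on B cells, had line means of 14.7 in CC001F1 and 13.1 in CC075F1 against 68.1 in CC002F1, where 1 tumor had 208. Madcam1, another gene of that list, was between 0 and 7.92 in all tumors. Of its 8 genes, 7 could be tested between R and NR lines. Higher in R lines were Bst1, an ectoenzyme also of myeloid and stromal cells (1.34 ± 0.31), and the adhesion gene Icam1 (0.78 ± 0.15). Clu (-0.73 ± 0.17) was lower, and all 3 were also called in edgeR. Bst1 had line means of 672 in CC001F1, 348 in CC002F1 and 364 in CC075F1, and Icam1 1028, 841 and 1128. With aPD1 in R lines DESeq2 called Bst1 (1.07 ± 0.25) and Icam1 (0.57 ± 0.17) higher and Cr2 (-2.05 ± 0.55) lower, and edgeR called none of the 3. DESeq2 called 4.85% of all genes tested higher and 0.408% lower in that comparison. The Cr2 value of 208 is from CC002F1 isotype replicate 1, a Glycam1 tumor in the isotype group. Cr2 was at most 21.5 in CC001F1 and 31.1 in CC075F1.

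Genes of the pathway known to drive Cxcl13 in lymphoid organs were not called between the responder lines. None of 16 was called by DESeq2 or edgeR between CC001F1 or CC075F1 and CC002F1. DESeq2 called only 0.333% and 0.325% of all genes there, so no call among 16 is near that share. At an unadjusted DESeq2 p under 0.05 were 2 and 0 of them, beside 1232 and 945 of 26342 genes fitted. A part of this pathway in the split was not tested. Of the 16 lymphotoxin and non-canonical NF-kappaB genes, 5 were higher in R lines by DESeq2 and none was lower. Over all genes tested the shares were 7.66% and 6.78%. In edgeR 2 of the 5 were called, Tnfsf13b and Tnfrsf1a. The 5 were Ltb, a lymphotoxin subunit (0.75 ± 0.24, adjusted p = 0.0210), Tnf (0.54 ± 0.18), Tnfsf11, which encodes RANKL (1.00 ± 0.34), Tnfsf13b, which encodes the B cell survival factor BAFF (0.88 ± 0.19), and the receptor gene Tnfrsf1a (0.20 ± 0.06). In limma with an estimated correlation the calls of Ltb (adjusted p = 0.0524) and Tnfsf11 (adjusted p = 0.0897) were lost. Ltb did not separate the lines as Cxcl13 did, since CC002F1 had a mean of 129 ± 23.9 (SD, n = 4), CC001F1 117 ± 39.1 and CC075F1 129 ± 67.3. Lta, the other lymphotoxin subunit, was at most 28.3 in all tumors and had a log2 difference of 0.83 ± 0.60 (adjusted p = 0.397). Ltbr, the receptor, had line means between 2080 and 2328, and the kinase gene Map3k14 and the subunit genes Relb and Nfkb2 were not called in any of the 7 comparisons.

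Among the other CXC chemokines, 3 ligands were higher in R lines, and CC002F1 had Cxcl9 at the level of the other R lines. Cxcl9, a ligand of CXCR3 on activated T cells, had line means of 11140 in CC001F1, 10780 in CC002F1 and 12500 in CC075F1 against 2340 to 4849 in the NR lines, and a log2 difference of 1.56 ± 0.29 (DESeq2 adjusted p = 8.88e-06). Cxcl11 was higher by 1.97 ± 0.43, with tumors of CC002F1 (73.3 to 159) that overlapped those of CC036F1 (30.4 to 140) and lay below those of CC001F1 (234 to 630). Cxcl10, also induced by interferon, did not pass (0.42 ± 0.17, DESeq2 adjusted p = 0.0755). Cxcl16, the ligand of CXCR6, was higher by 0.59 ± 0.13, and 3 of the 14 other CXC ligands, of which 12 could be tested, were called in all beside 7.66% of all genes tested, each of them also in edgeR. Their receptor genes Cxcr3 (1.30 ± 0.30) and Cxcr6 (1.47 ± 0.34) were called as well, 2 of 9 receptors, of which 7 could be tested. Cxcl9 and Cxcl13 thus parted in CC002F1, where per kilobase of exon Cxcl9 stood at 3573 and Cxcl13 at 29.1 normalized counts, while in CC001F1 they stood at 3693 and 1028.

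These 3 ligands and Cxcl10 were called higher with aPD1 in the R lines, where Cxcl13 was not. DESeq2 called Cxcl9 (0.94 ± 0.26), Cxcl10 (0.67 ± 0.16), Cxcl11 (0.94 ± 0.27) and Cxcl16 (0.51 ± 0.13), 4 of 14 ligands, of which 11 could be tested. The 95% interval of the Cxcl13 effect, -0.44 to 1.23, covers these 4 values, and a difference from them was not tested. All 8 genes of the type 2 interferon response list were called higher too, among them Ciita (0.86 ± 0.17), beside 4.85% of all genes tested. Tnf rose by 1.10 ± 0.22. All of these calls were absent from edgeR, which called 0 genes here, with 2621 genes at an unadjusted p under 0.05. In the NR lines DESeq2 called no list gene with aPD1, edgeR called 1, the B cell gene Ighd, and Cxcl9 had an effect of 0.56 ± 0.55 there.

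**Figure D2:**
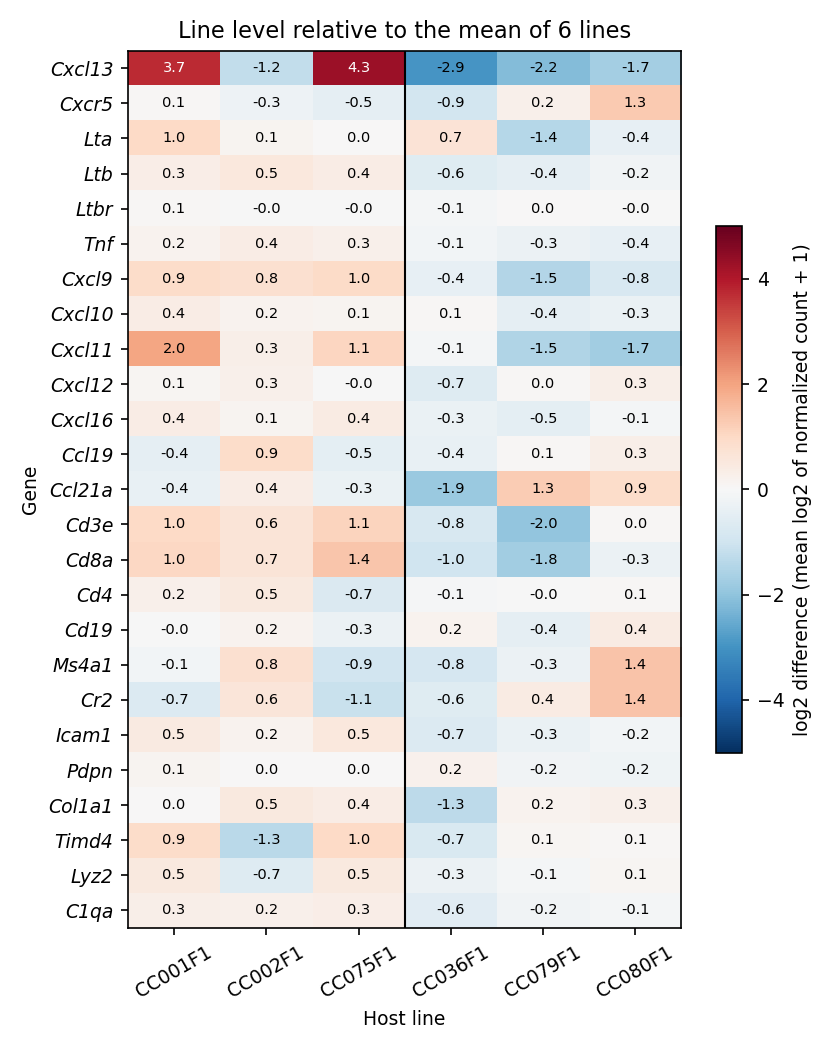
Mean log2(normalized count + 1) of 25 genes in each host line, less the mean of the 6 lines, with R lines left and NR lines right of the black line. Cxcl13 is the row with the widest range of the 25, from 4.26 in CC075F1 to -2.94 in CC036F1, with -1.21 in CC002F1, whereas Cxcl9, Cd3e and Cd8a are above 0 in all 3 R lines.

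Which genes of the 21 lists separated CC001F1 and CC075F1 from CC002F1 as Cxcl13 did was asked with the line comparisons, in which DESeq2 called 0.333% and 0.325% of 25831 genes. For CC001F1 0.178% were higher and 0.155% lower than in CC002F1, and for CC075F1 0.197% and 0.128%. Both comparisons use the CC002F1 tumors. Lyz2, which encodes lysozyme of macrophages and granulocytes, was higher by 1.13 ± 0.18 in CC001F1 (adjusted p = 3.41e-07) and by 1.12 ± 0.18 in CC075F1 (adjusted p = 4.54e-07). Timd4, a receptor for dying cells on resident macrophages, was higher by 1.955 ± 0.52 (adjusted p = 0.0499) and by 2.00 ± 0.52 (adjusted p = 0.0386), but not in edgeR, with adjusted p of 0.292 and 0.277. Timd4 counts were 58.0 to 182 in CC001F1, 48.4 to 195 in CC075F1 and 5.72 to 50.5 in CC002F1, so that 1 tumor of CC002F1 overlapped those of CC075F1. For both genes the CC002F1 mean was also below those of the NR lines. Lyz2 means were 23740 in CC002F1, 29690 to 38370 in the NR lines, 50800 in CC001F1 and 51010 in CC075F1. Timd4 means were 23.5, 29.5 to 60.4, 99.5 and 106 in the same order. The Lyz2 calls held in edgeR and with any tumor left out, whereas the Timd4 calls were lost when any of several single tumors was left out, CC002F1 isotype replicate 2 and both CC002F1 aPD1 tumors among them, with the direction kept.

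Most macrophage genes did not share this split. Of the 10 macrophage genes, 7 were higher in R than in NR lines, beside 7.66% of all genes tested, and edgeR called 6 of them, without Csf1r. C1qa was higher by 0.57 ± 0.11 and had line means of 14600 in CC001F1, 14310 in CC002F1 and 15390 in CC075F1. Apart from Lyz2, Timd4 and the vessel gene Glycam1, which is set by 1 tumor, the list genes called in CC001F1 against CC002F1 were Ccl22, higher, and Cxcl14, lower. Those called in CC075F1 were the neutrophil and platelet chemokine genes Cxcl2, Cxcl3 and Ppbp, all higher. Of these genes edgeR called only Ppbp. Ppbp and Cxcl3 were also lower in CC001F1 than in CC075F1, a comparison that called 0.324% of 23788 genes (0.122% higher, 0.202% lower) and in which Cxcl13 overlapped.

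T cell genes were higher in R lines as a group, and the CC002F1 mean of Cd8a lay above those of the NR lines. Of 16 T cell genes, 15 were called higher, all also in edgeR, with Cd4 as the exception, and Cd8a was higher by 1.78 ± 0.39. Line means of Cd8a were 600 in CC001F1, 468 in CC002F1, 744 in CC075F1 and 90.1 to 303 in the NR lines. Tumors of CC002F1 (233 to 816) overlapped those of CC080F1 (61.5 to 508) and CC036F1 (55.7 to 260). None of 14 B cell genes was called by DESeq2 or edgeR, 0 had an unadjusted p under 0.05 in DESeq2, and the list's median log2 difference was -0.33. Of the 14 fibroblast and lymphoid stroma genes, Thy1 and Acta2 were higher and Col3a1, Dcn and Pdgfra lower in R lines, beside 7.66% and 6.78% of all genes tested. The study used Thy1, with Cd8a, as a marker of cytotoxic T cells. The Dcn call was lost in edgeR (adjusted p = 0.110), in limma with an estimated correlation (adjusted p = 0.144) and with deep libraries only, where the DESeq2 calls of Col3a1 and Pdgfra were lost too. None of the 14 was called by DESeq2 or edgeR between CC001F1 or CC075F1 and CC002F1 (2 and 0 at an unadjusted p under 0.05). DESeq2 called 0.333% and 0.325% of all genes in those comparisons.

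Whether Cxcl13 varied with these cell types from tumor to tumor was examined within 2 sets of lines, since Cxcl13 fell into separate ranges between them. Each score was the mean of log2(CPM + 1) over a list, and 16 relations were tested by permutation with Benjamini-Hochberg adjustment. In the 8 tumors of CC001F1 and CC075F1, Cxcl13 rose with the B cell score (Pearson r = 0.897, exact permutation p = 0.00429, adjusted p = 0.0137; Spearman rho = 0.881, exact permutation p = 0.00724). Without the 2 tumors farthest from the median score, r was 0.831. The 8 points share lines and antibodies, which the permutation did not hold fixed, and with the line means taken out r was 0.888. In CC001F1 both measures were higher in both aPD1 tumors than in both isotype tumors. In CC075F1 the antibody groups overlapped in both measures. The B cell score itself spanned only 0.75 to 1.11 in these tumors and all had Glycam1 at 0. Ordered by that score, CC001F1 isotype replicate 1 was lowest in both measures, and without it r was 0.836 with an adjusted exact permutation p of 0.0815.

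For T cells and stroma the relation in the same 8 tumors did not pass. The T cell score gave r = 0.498 (exact permutation p = 0.211, adjusted p = 0.355; rho = 0.333, exact permutation p = 0.428), and without 2 tumors, CC075F1 aPD1 replicate 1 and CC001F1 aPD1 replicate 2, r was -0.19. The stroma score gave r = 0.453 (exact permutation p = 0.266, adjusted p = 0.355; rho = 0.548, exact permutation p = 0.171) and 0.520 without 2 tumors. The other 5 scores, for follicular helper T cells, follicular dendritic cells, macrophages, resident macrophages and the type 2 interferon response, had r between 0.03 and 0.66 and adjusted p from exact permutation of 0.193 or more.

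In the 15 tumors of the low lines, Cxcl13 rose with the T cell score, with r = 0.691 (permutation p = 0.00258, adjusted p = 0.0103; rho = 0.750, permutation p = 0.00194). It was 0.719 without the 2 tumors farthest from the median and 0.768 in the 12 tumors with no Glycam1 reads (permutation p = 0.00363, adjusted p = 0.0343). The 15 points share lines, and with the line means taken out r was 0.725. The stroma score gave r = 0.387 (permutation p = 0.157, adjusted p = 0.314; rho = 0.379, permutation p = 0.166) and 0.369 without 2 tumors.

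The B cell score of the low lines fell into separate clusters, from 2.40 to 3.48 in the 3 Glycam1 tumors and 0.68 to 0.92 in the other 12, so a value over all 15 is not given. In each of CC002F1, CC079F1 and CC080F1 the Glycam1 tumor was also the tumor with the most Cxcl13 of its line, with 52.5, 43.2 and 128. Over the other 12 tumors r was 0.489 for B cells (permutation p = 0.106, adjusted p = 0.188) and rho was 0.552. In those 12 the follicular helper T cell score gave 0.712 (permutation p = 0.00937, adjusted p = 0.04997). The type 2 interferon response, macrophage and follicular dendritic cell scores gave 0.684, 0.637 and 0.629 there, with adjusted permutation p of 0.0588, 0.0736 and 0.0736. The follicular helper T cell, follicular dendritic cell and interferon lists share genes with other lists. The follicular helper T cell score was low in most tumors. In the 3 Glycam1 tumors Cxcl13 was at most 128, while the 8 tumors of CC001F1 and CC075F1, which had B cell sums of 638 to 1621 against 3080 to 8166 in the Glycam1 tumors, had 526 or more. The part of lymphoid tissue in the Cxcl13 of these 3 tumors was not tested.

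**Figure D3:**
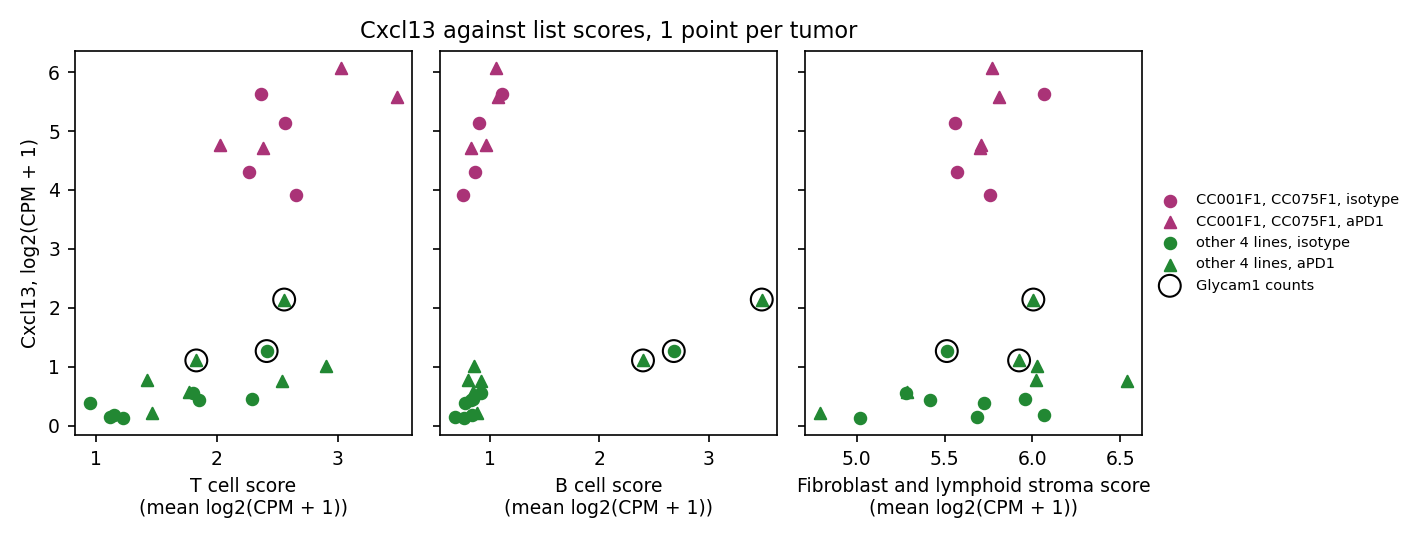
Cxcl13 as log2(CPM + 1) (vertical axis) against the T cell, B cell and stroma scores (mean log2(CPM + 1), horizontal axes), 1 point per tumor, with purple for CC001F1 and CC075F1, green for the other 4 lines, circles for isotype, triangles for aPD1 and rings for the 3 tumors with Glycam1 reads. The purple points lie above all green points at like scores, and the ringed tumors have B cell scores of 2.40 to 3.48 but less Cxcl13 than any purple point.

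The genes most like Cxcl13 over all 23 tumors were sought among 14878 genes whose normalized counts averaged 20 or more, as a description. The 8 with the highest Pearson r, on log2(normalized count + 1), were Tspan32 (0.87), Itgal (0.85), Trim5 (0.83), Tnip1 (0.81), Lcp1 (0.81), Ciita (0.80), Acp5 (0.80) and Il10rb (0.80). Itgal encodes the integrin chain of LFA-1, Lcp1 a leukocyte actin-bundling protein and Ciita the transactivator of MHC class II genes. Their ranges were far narrower than that of Cxcl13: Tspan32, a tetraspanin of blood cells, had line means of 395 in CC001F1 and 333 in CC075F1 and tumors of 105 or more in CC002F1. The points share library and line, and 99% of genes had an r below 0.71. The 3 lowest were Gm12191 (-0.84), Runx1t1 (-0.82) and Rab2b (-0.81), and Gm12191 had a line mean of 5.15 in CC001F1 with tumors at 0 in CC001F1 and CC075F1, while all CC002F1 tumors had at least 258.

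With each line mean taken out, another group came first. The 8 genes whose deviations from line means were most like those of Cxcl13 were Igkc (0.91), Cd6 (0.85), Ighg1 (0.85), Satb1 (0.81), Cd22 (0.80), Cd247 (0.80), Pax5 (0.79) and Jchain (0.78). Igkc, Ighg1 and Jchain encode immunoglobulin and its joining chain, Cd22 and Pax5 are B cell genes, and Cd6, Cd247 and Satb1 are T cell genes. The highest tumor for Igkc was CC080F1 aPD1 replicate 1, with 2049 normalized counts, a Glycam1 tumor. Igkc over all tumors without this centering had an r of only 0.25 to Cxcl13, since CC001F1 and CC075F1 had Igkc means of 39.9 and 55.4.

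**Figure D4:**
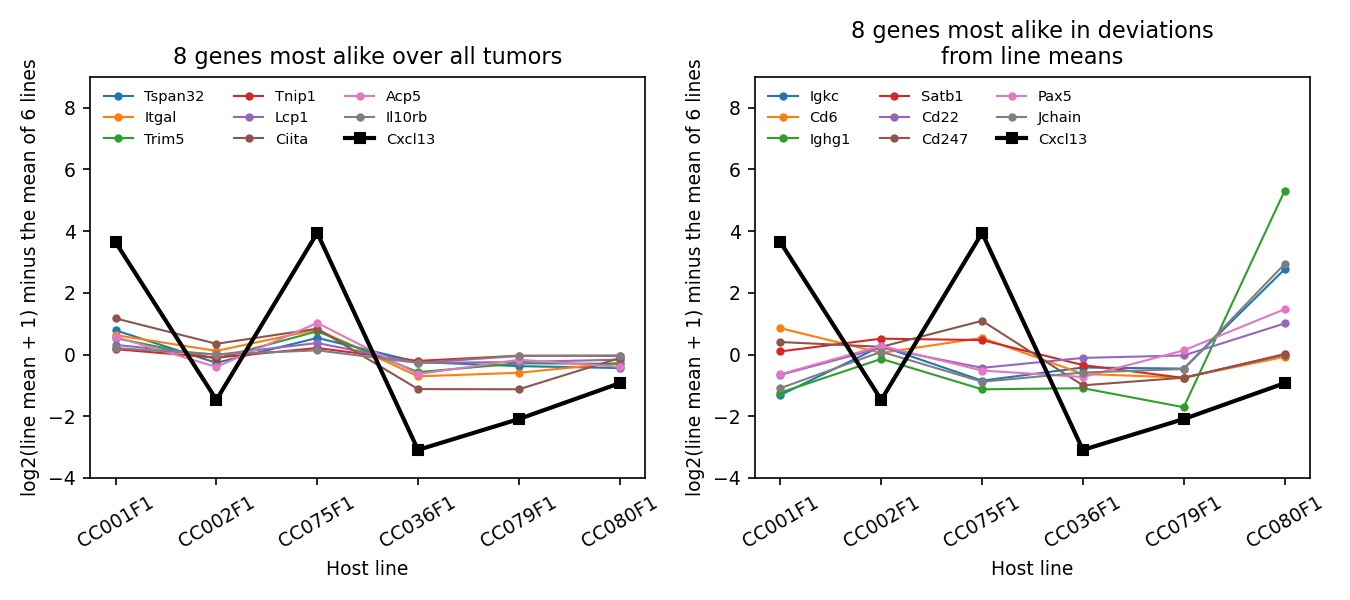
Vertical axes show log2(line mean of the normalized count + 1), less the mean of the 6 lines, by host line for Cxcl13 (black) and the 8 genes most like it over all tumors (left) or in deviations from line means (right). The 8 genes at the left rise and fall with Cxcl13 over a narrower range, and at the right Igkc, Ighg1, Jchain, Pax5 and Cd22 are highest in CC080F1.

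Genes beside Cxcl13 on chromosome 5 did not show line differences of its size. Of 29 other annotated genes of the matrix within 1 Mb of its start, 6 averaged 10 or more normalized counts. None of the 6 was called by DESeq2 in any of the 7 comparisons, in which 0 or 1 of them had an unadjusted p under 0.05. Of all genes tested, DESeq2 called 14.4% between R and NR lines and 5.26%, 0.0448% and 0.0342% in the antibody comparisons. Between responder lines it called 0.324% to 0.333%, so no call among 6 is near that share. Cnot6l, a deadenylase gene that starts 113 kb from the start of Cxcl13, had line means of 3683 ± 459 in CC001F1, 3574 ± 322 in CC002F1 and 3545 ± 346 in CC075F1 (SD, n = 4 each). Its log2 difference was 0.04 for CC001F1 minus CC002F1 and -0.01 for CC075F1 minus CC002F1. Mrpl1, at 253 kb, a mitochondrial ribosome gene, had 748 ± 109, 725 ± 61.1 and 778 ± 35.3 in the same lines. Anxa3, at 836 kb, had 3357 ± 98.6, 3531 ± 812 and 3070 ± 524. The remaining 3 were the predicted genes Gm5559, Gm7993 and Gm42605, with means of 30.4 to 76.6, and the largest line difference among the 6 neighbours was -1.91 for Gm42605 in CC075F1 minus CC002F1 (adjusted p = 0.982).

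**Figure D5:**
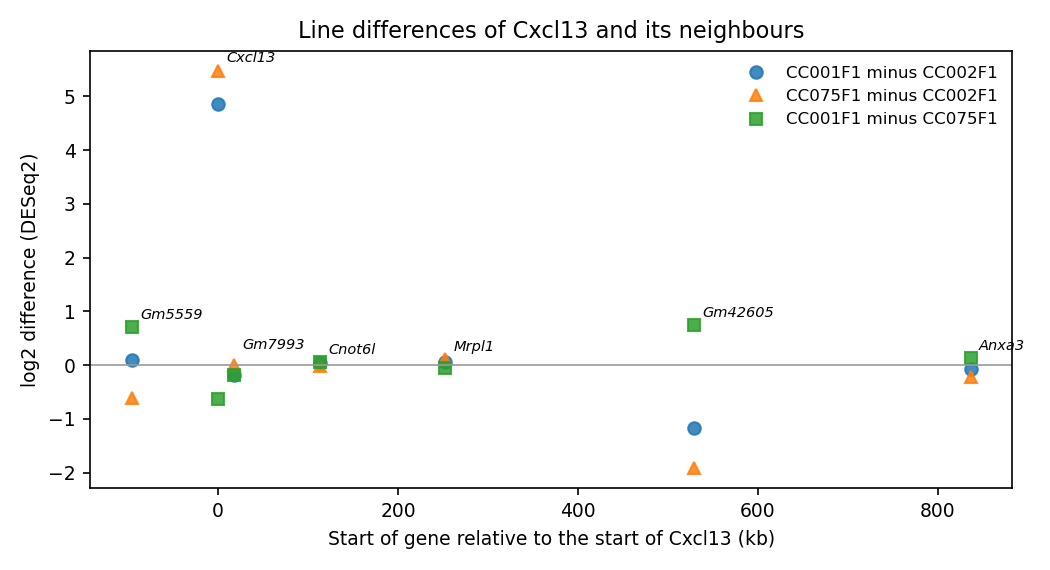
DESeq2 log2 differences between responder lines (vertical axis) for Cxcl13 and the 6 measured neighbours, by the distance of each gene's start from that of Cxcl13 in kb (horizontal axis). Cxcl13 lies at 4.86 and 5.48 for CC001F1 and CC075F1 against CC002F1, and the neighbours between -1.91 and 0.74.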

How the data were processed

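Bulk poly(A) RNA-seq of 23 tumors was analysed. The deposited table holds expected counts per gene, which per the labels and the methods of the study the authors made by aligning reads with Bowtie 1.2.3 to transcriptomes built for the founder strains and estimating counts over alleles; 16.95% of the expected counts were not whole, and they were rounded here. Estimated counts can be shared between near-identical genes. Genes were named and placed with GENCODE vM21 on GRCm38 (26681 of 26869 identifiers).

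Counts were fitted with DESeq2 1.42.0 (R 4.3.3, Wald test, its own size factors, Benjamini-Hochberg adjusted p under 0.05, genes with at least 5 counts over the fit). R against NR used antibody and class, and antibody and line comparisons used line and antibody. P-values measure the spread between tumors, which the labels call biological replicates, and R against NR treats tumors of 1 line as independent. Alternatives were edgeR 4.0.16, limma 3.58.1 (voom weights, with a correlation of tumors within a line), and other scalings and filters. Further alternatives were deep libraries of at least 20000000 counts, a replicate block and each replicate left out. The block was the replicate number in the R against NR and line fits. In the antibody fits, their difference included, it was the pair of line and replicate number. Leaving out the line CC080F1 or the 3 Glycam1 tumors was chosen after seeing the data. Levels per kilobase are line means of normalized counts over the length of all exons. Scores and their relations used TMM-scaled CPM computed here with a pseudocount of 1 and permutation tests in scipy 1.17.1, two-sided.

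Cxcl13, the 21 gene lists (173 genes) and the rules were chosen with earlier results of these data known, so nothing here is independent of them. Named were list genes that passed or that define their list, genes within 1 Mb of Cxcl13 with a mean of at least 10, the 8 genes most and 3 least like Cxcl13 over all tumors, and the 8 most like it in deviations from line means, among genes with a mean of at least 20. Totals of 14494014 to 71868253 counts set the precision, and intervals cover the fitted error only. A gene of the lists and a motif searched are not reported here. No library was left out of the results as given, and the fits were tested on simulated data.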

Additional observations from a re-analysis of the deposited data

Results flagged for a closer look

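Among 90 groups of 4 to 10 tumors, 8 had 1 tumor whose gap to the nearest other, as a share of the range, was beyond Dixon's limit; chance gives about 1 in 20. Cxcl13 itself had no such tumor. For Cxcr5, CC002F1 isotype replicate 1 stood apart in CC002F1 (gap share 0.921, 80.2 normalized counts against 0 to 6.33) and among all R isotype tumors (0.786), and CC079F1 aPD1 replicate 1 in CC079F1 (0.901, 61.0 against 2.07 to 7.93). The B cell score set the same tumors apart, with gap shares of 0.964 in CC002F1, 0.814 among R isotype tumors and 0.928 in CC079F1. These are 2 of the 3 tumors with Glycam1 reads. CC075F1 aPD1 replicate 1 was high in its line for the follicular helper T cell score (0.854, a score of 1.91 against 1.54 to 1.59) and the macrophage score (0.836, 8.62 against 7.91 to 8.03), whereas its Cxcl13 lay within the range of its line.

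The antibody effect differed between R and NR lines by the DESeq2 interaction test for 3 of 172 list genes, none of which passed in edgeR. Cr2 had a difference of -4.04 ± 0.84 on the log2 scale (DESeq2 adjusted p = 0.0109, edgeR 0.347) and Tnf one of 1.31 ± 0.30 (DESeq2 adjusted p = 0.0297, edgeR 0.347). Cr2 was highest in the 3 Glycam1 tumors, and without them both calls were lost, with -1.63 for Cr2 (DESeq2 adjusted p = 0.901) and 1.15 for Tnf (DESeq2 adjusted p = 0.397). Glycam1 had a fitted value of -30.0 (DESeq2 adjusted p = 0.00513, edgeR 0.624), which is no measure of size because the gene was at 0 in 20 of 23 tumors.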

How the results depend on the processing

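Counts of called genes moved with tool and libraries, and the cause was not tested. R against NR fell from 2548 to 1668 genes with deep libraries only, 1765 in edgeR and 1622 in limma with tumors of a line correlated. The correlation estimated in limma was 0.0152, so that fit hardly differs from one that treats tumors of a line as independent. With edgeR the antibody comparisons called 0 genes in R lines, 5 in NR lines and 0 for the difference (1932 at an unadjusted p under 0.05), and the line comparisons against CC002F1 called 47 for CC001F1 and 53 for CC075F1. In NR lines the count was 7 with TMM-scaled factors, 4 with filterByExpr, 44 with deep libraries, 300 without CC080F1 and 101 without the 3 Glycam1 tumors. For the difference it was 50, 5 and 24 with the last 3 settings. Samples with the same replicate number did not deviate together in every line. The correlations were 0.368 in CC001F1, 0.062 in CC002F1, 0.202 in CC036F1, 0.115 in CC079F1 and -0.202 in CC075F1. The labels do not say whether equal numbers pair tumors, and these correlations cannot settle it. With the replicate block the difference called 21 genes, CC001F1 against CC002F1 182, CC075F1 against CC002F1 189 and CC001F1 against CC075F1 214, and Cxcl13 had 0.41, 1.87 and -1.48 for the antibody effect in R lines, in NR lines and their difference.

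Leaving out each replicate gave 2089 to 2798 genes for R against NR, 327 to 1386 for antibody in R lines (the ends without CC001F1 aPD1 replicates 2 and 1), 2 to 242 in NR lines (highest without CC080F1 aPD1 replicate 1) and 4 to 305 for the difference (highest without CC001F1 aPD1 replicate 1). It gave 59 to 106 for CC001F1 against CC002F1, 66 to 97 for CC075F1 against CC002F1 and 59 to 88 for CC001F1 against CC075F1. Cxcl13 ranged from 0.07 to 0.71 for antibody in R lines, 1.43 to 2.58 in NR lines and -2.18 to -1.05 for the difference. Its level differences ranged from 4.50 to 5.25, 5.21 to 5.73 and -0.98 to -0.23 in the order of the line comparisons.

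Of 16 relations, 6 passed, 3 with deep libraries, 3 without the Glycam1 tumors and 5 to 6 with 1 tumor left out. The B cell, follicular dendritic cell and resident macrophage relations of the other 4 lines are counted among the 6. They did not pass without the Glycam1 tumors. With deep libraries the B cell relation of CC001F1 and CC075F1 was 0.901 and the T cell relation of the other lines 0.654 (adjusted permutation p = 0.0648 for both). The B cell relation of the other lines was 0.489 without the Glycam1 tumors. With 1 tumor left out, r was 0.372 to 0.673 for T cells, 0.836 to 0.917 for B cells and 0.321 to 0.609 for stroma in CC001F1 and CC075F1. In the other lines it was 0.663 to 0.739 for T cells and 0.314 to 0.472 for stroma. No such range is given for B cells there, since the Glycam1 tumors form a separate cluster. Signs turned for Cxcr5 in R against NR (0.077 without the Glycam1 tumors, and from -1.31 to 0.11 with 1 tumor left out, highest without CC080F1 aPD1 replicate 1) and for the interferon score of the other lines (-0.071 with deep libraries). In CC001F1 and CC075F1 they turned for the follicular dendritic cell score (-0.429 to 0.374 with 1 tumor left out, below 0 without CC001F1 aPD1 replicate 2 or either CC075F1 aPD1 tumor) and the resident macrophage score (-0.170 to 0.429, below 0 without the first of these or CC075F1 aPD1 replicate 1). Of 2740 values of single list genes, 2432 kept direction and side of the threshold, 306 lost the call and 2 turned. Few reads limit Cxcl13 in the 4 low lines.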
